A study of Mus musculus with 8 samples.

Results

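The genes of MHC class II antigen presentation were examined in tumor-educated macrophages (TEMs) with and without *Phgdh*, which encodes the first enzyme of serine synthesis from glucose. The 10 genes were picked by symbol, for their known role, from the 18635 genes of the deposited table. They encode the classical alpha and beta chains (*H2-Aa*, *H2-Ab1*, *H2-Eb1*), the invariant chain (*Cd74*), the transactivator (*Ciita*), the peptide exchange factor H2-DM (*H2-DMa*, *H2-DMb1*, *H2-DMb2*) and a pair of lysosomal enzymes (*Ctss*, *Ifi30*). Both groups consisted of bone marrow-derived macrophages (BMDMs) of mice aged 6 to 8 weeks on a C57BL/6 background, grown for 7 days in L929-conditioned medium and then held for 24 h in AE17-TCM, the supernatant of a murine mesothelioma line. Both carried the floxed alleles, Phgdh fl/fl, and there were 4 samples of Phgdh fl/fl TEMs, called controls here, and 4 of Phgdh fl/fl Cx3cr1-Cre TEMs. The Cre is expressed from one *Cx3cr1* allele, and the controls were littermates without it, so that loss of *Phgdh*, presence of the Cre and loss of a *Cx3cr1* copy cannot be told apart. Cells without TCM were not analysed here. The labels call the samples biological replicates but do not say that each came from a separate mouse, and p-values measure the spread between these samples.

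MHC class II molecules present peptides from endocytosed proteins to CD4+ T cells. The alpha and beta chains assemble in the endoplasmic reticulum with the invariant chain, which fills the groove and leads the complex to the lysosome, where proteases cut it down to a short peptide, CLIP, that H2-DM then exchanges for other peptides. CIITA is the master regulator of the pathway and is recruited by factors that sit on conserved boxes in the promoters of class II genes. In macrophages the level of class II is low at rest and rises with interferon gamma.

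The unit is the normalized count, the reads of a gene divided by a size factor of the sample, and 38219563 to 47027420 reads per sample were counted on genes. *Phgdh* was lower in the Cre samples, at 14.2 to 35.3 normalized counts against 104.9 to 128.9 in the controls, and *Cx3cr1* at 614 to 690 against 1000 to 1210. The macrophage markers were abundant in all 8 samples, with a sum of 986516 to 1075520 over 7 genes in the controls and 973612 to 1049000 in the Cre samples. Most of that sum was *Lyz2*. Of the 7, 3 were called lower in the Cre samples and 0 higher, against 20.3% and 20.8% of all tested genes. The 3 were the Fc receptor *Fcgr1* (log2 fold change -0.40, limma adjusted p = 7.4e-12), the integrin *Itgam* (-0.19, adjusted p = 7.0e-06) and *Adgre1*, the antigen F4/80 (-0.08, adjusted p = 0.00558).

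All 3 classical chain genes rose in Phgdh fl/fl Cx3cr1-Cre TEMs, together with the invariant chain. *H2-Aa*, the alpha chain of I-A, stood at 718, 612, 711 and 705 normalized counts in control replicates 1 to 4 and at 1288, 1303, 1245 and 1330 in the Cre replicates. Its lowest Cre sample lay far above its highest control sample, and control replicate 2 was the lowest of all. The log2 fold change of *H2-Aa*, Cre over control on log2(normalized count + 1), was 0.91 (standard error 0.05, limma adjusted p = 4.6e-12), a ratio of means of 1.88.

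*H2-Ab1* encodes the beta chain that pairs with H2-Aa. Its normalized counts were 527, 559, 482 and 529 in the controls and 1001, 831, 842 and 865 in the Cre samples. The groups did not overlap, and Cre replicate 1 stood above the other 3. On the log2 scale *H2-Ab1* rose by 0.75 (standard error 0.06, limma adjusted p = 2.2e-09). Its ratio of means was 1.69, and leaving out single samples gave 1.61 to 1.73.

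*H2-Eb1* encodes the beta chain of I-E, whose alpha chain gene is defective in C57BL/6 mice, so that its protein has no regular partner there. It had 490, 511, 546 and 472 normalized counts in the controls and 969, 1009, 883 and 940 in the Cre samples. Again all Cre samples lay above all controls. *H2-Eb1* rose by 0.91 on the log2 scale (standard error 0.05, limma adjusted p = 2.2e-11).

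*Cd74*, the invariant chain, was the most abundant of these 4 genes. It had 1785, 1669, 1884 and 1877 normalized counts in the controls and 3082, 2972, 2954 and 3026 in the Cre samples, with no overlap. The log2 fold change of *Cd74* was 0.74 (standard error 0.04, limma adjusted p = 1.2e-12). An exact permutation test, two-sided, returned 0.0286 for each of these 4 genes, as low a p as 4 samples against 4 can give.

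The transactivator *Ciita* was counted from few reads, 7 to 31 per sample. Its normalized counts were 16.7, 6.44, 23.8 and 11.4 in the controls and 31.5, 26.0, 20.3 and 30.1 in the Cre samples. Control replicate 3 lay above Cre replicate 3, so the groups overlapped. The log2 fold change of *Ciita* was 0.96 (standard error 0.32, limma adjusted p = 0.0189), and an exact two-sided permutation test returned p = 0.0571. The call is lost without control replicate 2, where the log2 fold change was 0.65 and the adjusted p 0.0755, and without Cre replicate 1 or 4. A 95% confidence interval of 0.30 to 1.62 went with the log2 fold change. *Ciita* overlaps *Dexi* on the opposite strand, which had means of 237 and 234 normalized counts in the controls and Cre samples. The strand setting of the counting is not given in the sources used here.

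**Figure D1:**
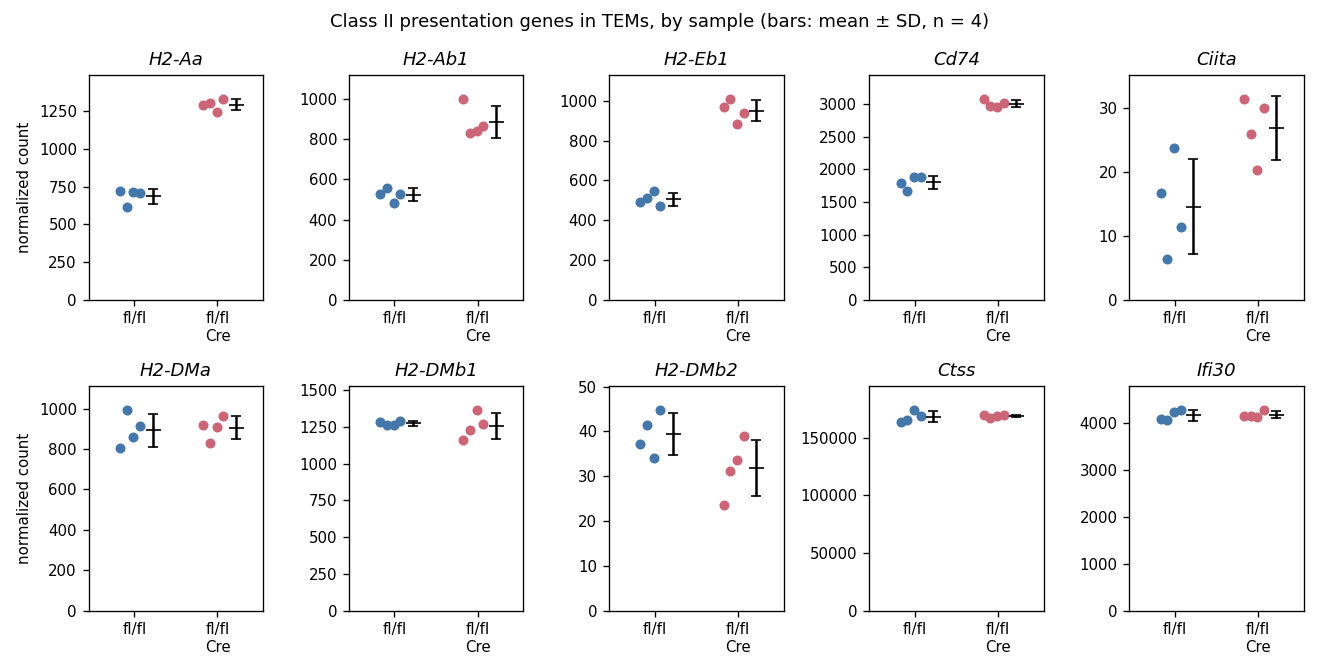
Normalized counts of the 10 genes (vertical axis from 0, own scale per gene) in each control sample (fl/fl, blue) and Cre sample (fl/fl Cre, red), with points in the order of replicates 1 to 4 and bars for the mean ± SD (n = 4). The groups are apart in *H2-Aa*, *H2-Ab1*, *H2-Eb1* and *Cd74*, touch in *Ciita*, and lie over each other in the lower row.

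The genes that act later in the compartment did not follow. *H2-DMa*, the alpha chain of the peptide exchange factor, had 804, 995, 860 and 915 normalized counts in the controls and 919, 832, 908 and 966 in the Cre samples. The groups lay over each other. *H2-DMa* had a log2 fold change of 0.02 with a 95% confidence interval of -0.10 to 0.14 (limma adjusted p = 0.786).

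*H2-DMb1*, a beta chain of H2-DM, had 1282, 1262, 1263 and 1291 normalized counts in the controls and 1163, 1229, 1368 and 1268 in the Cre samples. The controls were close together inside the wider range of the Cre samples. Its log2 fold change was -0.02, with an interval of -0.11 to 0.07 (limma adjusted p = 0.718). The second beta chain gene, *H2-DMb2*, was far less abundant, at 37.2, 41.4, 34.1 and 44.8 normalized counts in the controls and 23.6, 31.2, 33.5 and 38.9 in the Cre samples. Its groups overlapped, and its log2 fold change of -0.31 did not pass (interval -0.72 to 0.10, limma adjusted p = 0.215). Of the distinct stretches of 75 bases, the read length, 15.8% of *H2-DMb1* and 16.2% of *H2-DMb2* also occur in another gene, 254 of them shared by both, so that some reads of this pair could not be assigned to one gene. *H2-DMa* shares 7.46% of its stretches with *Brd2*, which overlaps it on the opposite strand and had a log2 fold change of 0.01. The 3 classical chain genes, *Cd74* and *Ctss* shared none.

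*Ctss* encodes cathepsin S, the protease that trims the invariant chain to CLIP in antigen-presenting cells. It was by far the most abundant of the 10, with 163487, 165304, 174126 and 168688 normalized counts in the controls and 169116, 166926, 168837 and 169783 in the Cre samples. All 4 Cre samples fell inside the range of the controls. The log2 fold change of *Ctss* was 0.01 with an interval of -0.04 to 0.06 (limma adjusted p = 0.851), and it passed the test with quantile normalization alone (0.12, adjusted p = 0.0144). *Ifi30*, the lysosomal thiol reductase GILT that opens disulfide bonds of antigens, had 4086, 4064, 4235 and 4290 normalized counts in the controls and 4163, 4148, 4127 and 4292 in the Cre samples. Its log2 fold change was 0.0049 with an interval of -0.05 to 0.06 (limma adjusted p = 0.905). The intervals of H2-DM, *Ctss* and *Ifi30* all end below those of the classical chains and *Cd74*.

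Of the 10 genes, all of which passed the filter (a mean of 10 normalized counts or more), 5 were called higher, 0 lower and 5 not called. Over all 13629 tested genes, 20.8% were called higher and 20.3% lower, so that a call as such was common in this comparison. In 4 of the 10 the groups did not overlap, against 36.7% of all tested genes. The median log2 fold change was 0.38 over the 10 genes and -0.0018 over all genes tested, where 2.08% of genes had a log2 fold change over 0.7. Grouped after their values were seen, the chains, *Cd74* and *Ciita* ranged from 0.74 to 0.96, and H2-DM, *Ctss* and *Ifi30* from -0.31 to 0.02.

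Of 10 markers of dendritic cells, which carry much class II, 8 were in the table and 5 passed the filter. Of these 5, 2 were called higher, against 20.8% of all tested genes. The summed normalized count of the 8 was 596 to 634 in the controls and 988 to 1140 in the Cre samples. Most of that sum was *Itgax*, the integrin CD11c that macrophages also express, with 456 to 513 normalized counts in the controls and 789 to 961 in the Cre samples (log2 fold change 0.88, limma adjusted p = 2.8e-10). *Dpp4* (0.98, adjusted p = 0.00797) was called higher, and *Zbtb46* (0.79, adjusted p = 0.0642), *Ccr7* (0.39) and *Batf3* (0.07) were not. *Dpp4* and *Zbtb46* were counted from few reads, 9 to 30 and 6 to 35 per sample. *Zbtb46* passed without control replicate 2 (adjusted p = 0.0304), control replicate 4 or Cre replicate 2. The growth factor receptor *Flt3* stayed at 1.03 to 5.72 normalized counts over the 8 samples, *Clec9a* at 0 to 4.86 with 3 controls at 0, and *Kit* at 2.07 to 7.12. *Cd209a* and *Xcr1* were looked up by symbol and had no values. Among B cell markers, *Ms4a1* was at most 4.13 and *Cd79b* fell (log2 fold change -0.63, limma adjusted p = 2.9e-05). *Ighm* did not fall and was not called (0.11, adjusted p = 0.365). The sum over the 3 genes was 441 to 536 in the controls and 379 to 449 in the Cre samples. The one neutrophil marker in the table, *S100a8*, was at 467 to 575 normalized counts in the controls and 576 to 631 in the Cre samples (log2 fold change 0.23, adjusted p = 0.0044), without overlap. Fibroblast and mesothelial markers summed to 7.63 to 14.5 over 3 genes in the controls and 7.27 to 20.4 in the Cre samples, none of them past the filter. The 5 T cell markers looked up by symbol had no values. The part of any of these cells, or of the lower macrophage markers, in the rise of class II was not tested, and in bulk RNA more cells of a type and more RNA per cell cannot be told apart.

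Whether genes that work together moved by the same amount was asked with differences of log2(normalized count + 1) within each sample, for 7 pairs. *H2-Aa* exceeded its partner *H2-Ab1* by 0.39 ± 0.18 in the controls and by 0.55 ± 0.13 in the Cre samples (SD, n = 4 each). That change of 0.16 was within the spread (standard error 0.11, exact two-sided permutation p = 0.2). The difference of *Cd74* and *H2-Ab1* was 1.78 ± 0.16 in the controls and 1.77 ± 0.10 in the Cre samples (exact permutation p = 0.943). A p that misses the threshold does not show that the paired genes moved alike.

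*Ctss* exceeded *Cd74*, whose product it cuts, by 6.54 ± 0.06 in the controls and by 5.81 ± 0.02 in the Cre samples (SD, n = 4 each). This change of -0.73 (standard error 0.03) was the one whose groups did not overlap. It follows from the log2 fold changes of the genes, 0.01 for *Ctss* and 0.74 for *Cd74*. Its exact permutation p was 0.0286, the lowest that 4 samples against 4 can give. Adjusted over the 7 pairs it becomes 0.2. A lone separated pair cannot go below that, so the adjusted p does not measure the strength of this change. For *H2-DMb2* against *H2-DMb1* the change was -0.29 (exact permutation p = 0.0857), for *H2-DMa* against *H2-DMb1* 0.04 (p = 0.657), for *H2-Eb1* against *H2-Ab1* 0.16 (p = 0.2), and for *H2-Ab1* against *Ciita* -0.21 (p = 0.686).

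Per exon length the 10 genes spanned a wide range, given as RPKM (reads per kilobase of annotated exon, scaled to the total reads of the sample). *Ctss* stood at 2853 ± 74.8 in the controls and *Ifi30* at 98.1 ± 2.46 (SD, n = 4 each). They were followed by *Cd74* at 24.8 ± 1.35 and *H2-DMb1* at 17.5 ± 0.20. *H2-Eb1* (5.99 ± 0.37) and *H2-DMa* (5.98 ± 0.55) did not differ beyond their spread, and *H2-Ab1* (4.71 ± 0.29) and *H2-Aa* (4.17 ± 0.30) came next. At the low end were *H2-DMb2* (0.52 ± 0.06) and *Ciita* (0.035 ± 0.018).

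In the Cre samples the order of levels changed in the middle of the list. *H2-Eb1* reached 11.4 ± 0.64, *H2-Ab1* 8.03 ± 0.70 and *H2-Aa* 7.93 ± 0.21 RPKM, all above *H2-DMa* at 6.13 ± 0.36 (SD, n = 4 each). The levels of *H2-Ab1* and *H2-Aa* did not differ beyond their spread there. *Cd74* rose to 41.8 ± 0.70 while *H2-DMb1* stood at 17.4 ± 1.21. The exon length is the union of all annotated transcripts of a gene, which lowers the level of genes with long rare transcripts.

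**Figure D2:**
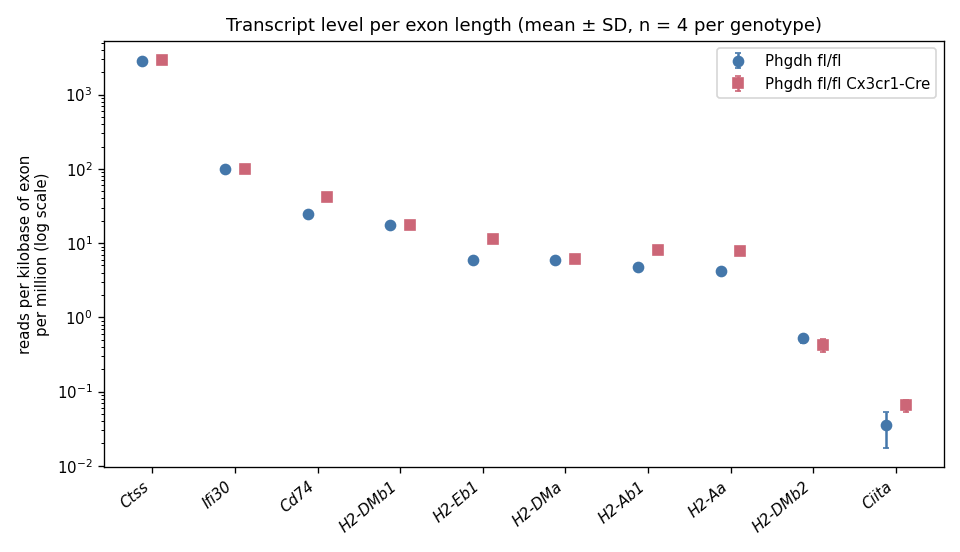
Level of the 10 genes in RPKM (log axis), as mean ± SD of 4 control (blue circles) and 4 Cre samples (red squares), ordered by the control mean. The controls run from *Ctss* at 2853 to *Ciita* at 0.035, and *H2-Eb1*, *H2-Ab1* and *H2-Aa* pass *H2-DMa* in the Cre samples.

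The promoters of these genes are known for a conserved module, an X box bound by the RFX complex, a CREB-type box, and a Y box bound by NF-Y. RefSeq promoter windows (GRCm38.p6, 250 bases before to 50 after the start) were at hand for 7 of the 10, all but *H2-Ab1*, *Cd74* and *Ciita*. They were searched on both strands for the Y box letters TGATTGG, the X box core AACNNNTG and the CREB-type site TGACGTCA. To compare genes that rose with one that did not, 70 bases are shown 5′ to 3′ on the strand of the gene for *H2-Aa* (chr17:34287859-34287928, minus), *H2-Eb1* (chr17:34305751-34305820, plus) and *H2-DMb2* (chr17:34145102-34145171, plus), with the motifs found in capitals.
H2-Aa: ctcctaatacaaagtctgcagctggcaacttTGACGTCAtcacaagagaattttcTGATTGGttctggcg
H2-Eb1: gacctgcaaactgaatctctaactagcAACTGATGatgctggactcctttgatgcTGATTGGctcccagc
H2-DMb2: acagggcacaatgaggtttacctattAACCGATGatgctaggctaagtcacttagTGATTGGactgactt

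In all 3 the last capitals are the Y box. It starts 50 bases before the RefSeq start of *H2-Aa*, 61 before that of *H2-Eb1* and 92 before that of *H2-DMb2*. In GENCODE M21 *H2-DMb2* starts further upstream, at 34143307, so its stretch lies inside the annotated gene. The first capitals are the CREB-type site in *H2-Aa* and the X box core in the other two. An X box core followed by a Y box within 40 bases was found in *H2-Eb1*, *H2-DMb1* and *H2-DMb2*, and also in *H2-Ob* and *H2-Eb2*, against 0.314% of all 32851 windows. It was thus present in a gene that rose and in genes that were not called. It was not found in *H2-Aa*, which also rose and whose window held no AACNNNTG. The Y box letters alone occurred in 7.82% of windows, the X box core in 35.6% and TGACGTCA in 1.79%. The windows of *H2-DMa*, *Ctss* and *Ifi30* held no TGATTGG. Here, as for AACNNNTG in *H2-Aa*, this says only that these letters are not there.

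The chain genes and H2-DM lie in one stretch of chromosome 17 of mm10, with positions given here from GENCODE M21. *H2-Ab1* is on the plus strand from 34257689 to 34269419, *H2-Aa* on the minus strand from 34282744 to 34287823 and *H2-Eb1* on the plus strand from 34305867 to 34316674. The start of *H2-Aa* lies 30.1 kb and that of *H2-Eb1* 48.2 kb from the start of *H2-Ab1*, on the side away from H2-DM. *H2-DMb1*, *H2-DMb2* and *H2-DMa* start 105, 114 and 138 kb on the other side of *H2-Ab1*. The remaining genes are elsewhere, *Cd74* on chromosome 18 from 60803848 to 60812652, *Ciita* on chromosome 16 from 10480059 to 10528418, *Ifi30* on chromosome 8 from 70762774 to 70766663, and *Ctss* on chromosome 3 from 95526786 to 95556403, 2.76 Mb from *Phgdh*. None of the 10 lies on chromosome 9, where the Cre is inserted at *Cx3cr1*.

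Between the chain genes and H2-DM are genes of class I presentation. Of these, *Tap1*, a subunit of the peptide transporter, was called higher (log2 fold change 0.24, limma adjusted p = 2.4e-07), and the immunoproteasome subunit *Psmb8* lower (-0.08, adjusted p = 0.0128). *Tap2* (0.02) and *Psmb9* (0.02) were not called. *Psmb8* lost its call without control replicate 2 (adjusted p = 0.056).

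Closest to *H2-Ab1* on that side was *H2-Ob*, the beta chain of the H2-DM inhibitor H2-O, at 226, 260, 229 and 233 normalized counts in the controls and 179, 237, 257 and 271 in the Cre samples. These groups overlapped (log2 fold change -0.02, limma adjusted p = 0.89). Its partner *H2-Oa* had 19.5, 16.6, 21.7 and 18.1 against 46.1, 20.8, 24.4 and 12.6 normalized counts, where Cre replicate 1 was high and Cre replicate 4 the lowest of all (log2 fold change 0.30, adjusted p = 0.459). *H2-Eb2* stayed below the filter, at 0.930 to 5.72, and *H2-Ea*, looked up by symbol, had no values. Of the 10 neighbors without a class II role, those of class I presentation included, 2 were called higher and 4 lower. Their median log2 fold change was 0.01, and over all tested genes 20.8% were called higher and 20.3% lower. The lowest of these neighbors was *Notch4* (-0.55, adjusted p = 0.015), whose call was lost without control replicate 4 or Cre replicate 1 (adjusted p up to 0.0612).

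**Figure D3:**
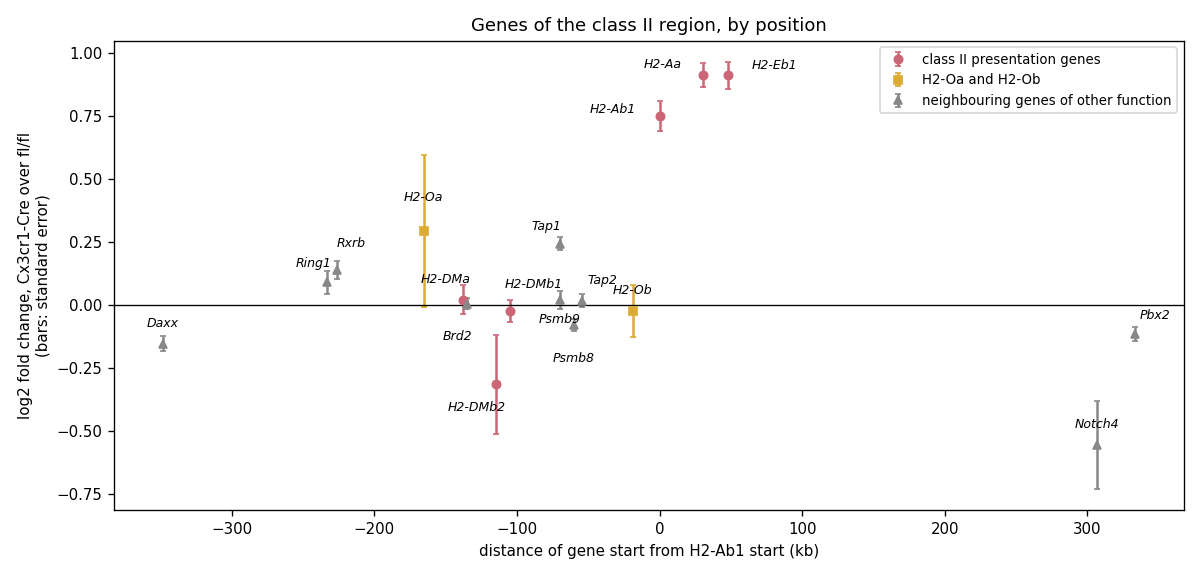
Log2 fold change with standard error (vertical axis) of tested genes of the class II region against the distance of their start from that of *H2-Ab1* (kb), with class II presentation genes in red, *H2-Oa* and *H2-Ob* in yellow and other neighbors in grey. *H2-Ab1*, *H2-Aa* and *H2-Eb1*, at 0.75, 0.91 and 0.91, lie above all other genes drawn.

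Among factors that bind class II promoters or the promoters of *Ciita*, 1 of 10 was called higher and 4 lower. Over all tested genes these shares were 20.8% and 20.3%. The median log2 fold change of the 10 factors was -0.02. *Irf4*, a lymphoid and myeloid interferon regulatory factor, rose from 30.7, 41.4, 38.2 and 30.5 normalized counts in the controls to 58.5, 48.8, 53.9 and 59.3 in the Cre samples, without overlap (log2 fold change 0.64, limma adjusted p = 0.00451). *Spi1*, the myeloid master factor PU.1, fell by 0.21 on the log2 scale (adjusted p = 3.4e-07), and its partner *Irf8* fell by 0.20 (adjusted p = 8.4e-07).

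The RFX subunits went in no common direction. *Rfxap* was called lower (-0.13, limma adjusted p = 0.0307), and *Rfx5* (0.08, adjusted p = 0.0989) and *Rfxank* (0.21, adjusted p = 0.0543) were not called. Of NF-Y, *Nfyc* was called lower (-0.18, adjusted p = 0.0285), and *Nfya* (0.02) and *Nfyb* (-0.06) were not, nor was *Creb1* (0.05). The calls of *Rfxap* and *Nfyc* were lost in 6 and 4 of 17 other settings, where the adjusted p reached 0.116 (without Cre replicate 4) and 0.114 (without control replicate 1), DESeq2 among them in each case. *Rfxap* also lost its call without control replicate 2 or 4 or Cre replicate 3, and *Nfyc* without Cre replicate 2 or 4. *Rfxank* passed in 5 of 17 other settings. These were without control replicate 2 (adjusted p = 0.0107) or Cre replicate 4, with the filter at a mean of 100, with total read scaling and with a replicate block. The groups of *Rfx5* did not overlap, and it passed with eBayes without trend alone (adjusted p = 0.0376).

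Interferon gamma is the classical inducer of *Ciita*. Of its 7 receptor and signalling genes reported here, 2 were called higher and 1 lower, near the 20.8% and 20.3% of all tested genes. Their median log2 fold change was -0.05. The kinases *Jak1* (0.12, limma adjusted p = 0.000138) and *Jak2* (0.20, adjusted p = 1.9e-05) rose. The receptor chain *Ifngr1* fell by 0.09 (adjusted p = 0.00213), and *Ifngr2* (0.0046), *Irf1* (-0.05), *Irf2* (-0.08) and the inhibitor *Socs1* (-0.21) were not called. *Irf2* passed in 5 of 17 other settings, without control replicate 1 (adjusted p = 0.0135) or Cre replicate 3 among them. The others were the filter at a mean of 100, quantile normalization and a replicate block.

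Of 11 endosomal proteases and their inhibitor, 3 were called higher and 4 lower, against 20.8% and 20.3% of all tested genes. Their median log2 fold change was 0.01. *Ctsl*, cathepsin L, which can also cut the invariant chain, fell from a range of 183671 to 194378 in the controls to one of 127919 to 134684 normalized counts in the Cre samples (log2 fold change -0.54, limma adjusted p = 5.4e-13). Legumain, *Lgmn*, fell by 0.17 (adjusted p = 1.8e-05) and *Ctsc* by 0.09 (adjusted p = 0.00897, up to 0.0722 and lost with quantile normalization or eBayes without trend), and the inhibitor cystatin C, *Cst3*, by 0.06 (adjusted p = 0.0285, up to 0.346 in other settings, 8 of 17 of which lost the call, leaving out control replicate 2 or 4 or Cre replicate 2, 3 or 4 among them). *Ctsk* (0.28), *Ctsz* (0.13) and *Ctsd* (0.12) rose, though *Ctsd* lost its call with eBayes without trend (adjusted p = 0.0512) and its log2 fold change was 0.27 with quantile normalization. *Ctsb* (0.05), *Ctse* (0.18), *Ctsh* (-0.04) and the peptidase *Sppl2a* (0.01), which removes the last invariant chain fragment, were not called by limma. Of these, *Ctsb* gained a call with edgeR and with DESeq2 (adjusted p 0.0366 at the lowest).

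Of 4 genes that set how long class II stays at the surface, 2 were called higher, against 20.8% of all tested genes. *Marchf1*, the ubiquitin ligase that marks class II for degradation, had 2235, 2076, 2061 and 2214 normalized counts in the controls and 2795, 2749, 2715 and 2719 in the Cre samples. All Cre samples were above all controls (log2 fold change 0.36, limma adjusted p = 1.5e-08). *Cd83*, which opposes that ligase, rose by 0.21 (adjusted p = 0.0015), from 1074 to 1268 in the controls to 1276 to 1404 normalized counts in the Cre samples. *Marchf8* (0.04, adjusted p = 0.161) and *Il10* (-0.02, adjusted p = 0.912) were not called. Against 20.8% and 20.3% of all tested genes, 3 of 7 genes of the class II loading compartment were called higher and 1 lower. They were the tetraspanin *Cd82* (0.35, adjusted p = 9.3e-08), the lysosomal GTPase *Arl8b* (0.18, adjusted p = 2.7e-06), *Lamp1* (0.07, adjusted p = 0.0149, lost without Cre replicate 4 at 0.0561 and with eBayes without trend) and, lower, the tetraspanin *Cd63* (-0.10, adjusted p = 0.00773, up to 0.142 and lost with quantile normalization or eBayes without trend).

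**Figure D4:**
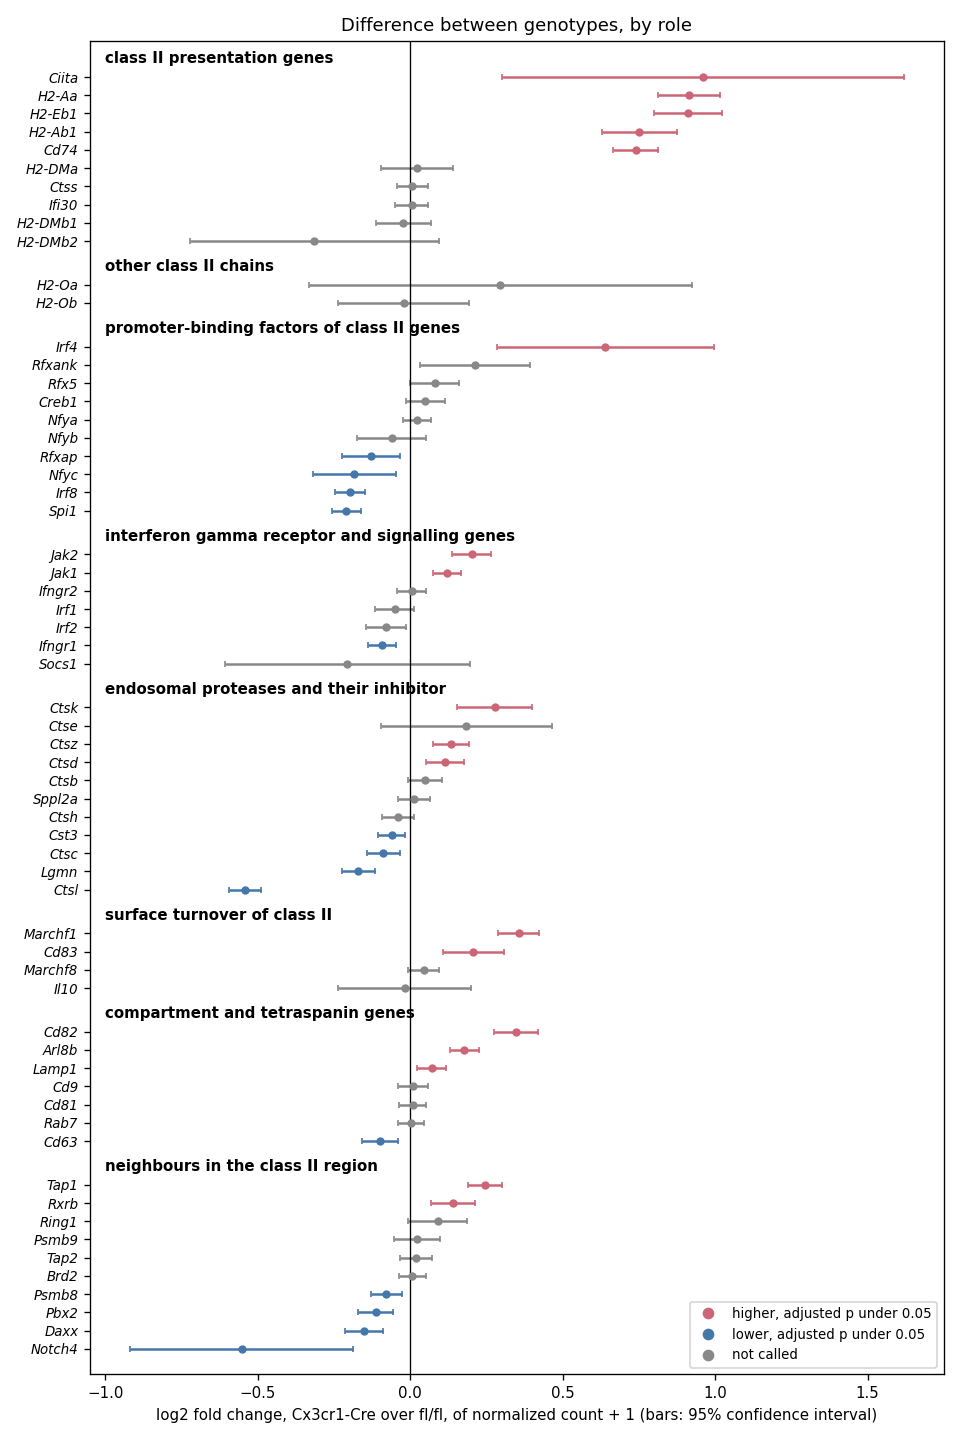
Log2 fold change, Cre over control, with 95% confidence interval (horizontal axis) of the 10 class II presentation genes and of the related lists by role, in red where called higher, in blue where called lower and in grey where not called (limma, adjusted p under 0.05). *H2-Aa*, *H2-Eb1*, *H2-Ab1*, *Cd74* and *Ciita* lie between 0.74 and 0.96, and *Irf4* at 0.64 is the highest gene of the other lists.

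As deviations of log2 values from the mean of the genotype, *H2-Aa* (-0.16), *Cd74* (-0.11) and *Ciita* (-0.93) were each lowest among the controls in replicate 2, where *H2-Ab1* was highest (0.09). Among the Cre samples *H2-Ab1* stood out in replicate 1 (0.18), where *H2-Eb1* (0.03), *Cd74* (0.03) and *H2-Aa* (-0.0035) did not. The genes outside all lists whose deviations over the 8 samples were most like the mean of *H2-Aa*, *H2-Ab1*, *H2-Eb1* and *Cd74* were *Ccl7* (Pearson r = 0.971), *Slc6a9* (0.963), *Pih1d1* (0.961), *Rpl17* (0.958) and *Bmyc* (0.956). They were picked from 10450 genes, the hundredth of which still had r = 0.837, and all values of a sample share its library and size factor.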

How the data were processed

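RNA of 8 TEM samples was sequenced by the authors (directional NEBNext kit, NextSeq550, single reads of 75 bases), who mapped the reads to mm10 with TopHat2, counted them with HTSeq 0.6 and used DESeq2. The deposited signal is the count of a gene divided by a size factor of the sample, although the methods speak of FPKM. All of the 144353 values above 0 gave whole reads (100%, tolerance 0.01). The authors' own fold changes and p-values were not used.

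The main fit used limma 3.58.1 under R 4.3.3 (lmFit, eBayes with trend, two-sided, no covariate) for log2(normalized count + 1) of the 13629 genes whose mean reached 10 normalized counts. P-values were adjusted over all of them by Benjamini-Hochberg, and a gene was called at an adjusted p under 0.05. Single values and pair differences were tested by exact two-sided permutation over 70 labelings. Annotation came from GENCODE M21, of the mm10 build, and promoters from RefSeq. The fits were tested on simulated counts.

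Alternatives were no filter or one at a mean of 100, a pseudocount of 0.1, scaling to total reads, quantile normalization, a replicate block, eBayes without trend, single samples left out, and edgeR 4.0.16 and DESeq2 1.42.0 on the recovered reads. The genes and lists were chosen with earlier results of these data known. The result of 1 gene of the related lists is not reported here, and it is left out of the counts of its list. Every class II presentation gene was named, every gene of the related lists that passed the filter could be, cell type markers were given by sum and range, and the 5 genes most like the chains by their deviations. Single markers such as *Itgax* were named after their values were seen. The spread between replicates, counting error included, sets the precision of each value.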

Additional observations from a re-analysis of the deposited data

Results flagged for a closer look

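In groups of 4, a sample was singled out when its gap to the nearest other sample, as a share of the range of the group, exceeded Dixon's limit for 4 values. This happened in 5 of 126 groups over 63 genes, and chance flags about 1 in 20 groups. *H2-Aa* was low in control replicate 2 (612 normalized counts, the next at 705, gap 0.880 of the range). The other 4 were in Cre samples. *Ifngr1* was low in replicate 1 (gap 0.840), *Irf2* high in replicate 3 (0.936), *Psmb8* high in replicate 2 (0.935) and *Notch4* low in replicate 1 (0.921).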

How the results depend on the processing

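*H2-Aa*, *H2-Ab1*, *H2-Eb1* and *Cd74* were called higher in all 17 alternatives, with log2 fold changes of 0.86 to 0.94, 0.69 to 0.78, 0.88 to 0.95 and 0.70 to 0.76. *Ciita* lost its call in 4 of the 16 that kept it, eBayes without trend among them, with an adjusted p of 0.0042 to 0.0755, and the filter at a mean of 100 left out *Ciita* and *H2-DMb2*. The cause was not tested. The 3 H2-DM genes and *Ifi30* were not called in any alternative. The number of the 10 genes called higher was 4 to 6. Their median log2 fold change, 0.38, was 0.43 with quantile normalization, and 0.35 to 0.40 with each sample left out. Of the 7 pairs, 1 had groups that did not overlap, and 1 to 2 with each sample left out. All tested genes gave 5594 calls, and 4966 to 5917 with each sample left out, and scaling to total reads moved the share of higher calls from 50.6% to 56.2%. Samples of the same replicate number deviated together weakly (r = 0.0628 to 0.126 over genes). Control replicate 1 correlated best with Cre replicate 4 (r = 0.135), and the other controls with the Cre sample of their own number. Whether a number marks a shared origin is not given by the labels and was not tested. With a replicate block 5597 genes were called, and 5 of the 10 were called higher and 0 lower, and of the related genes *Rfxank* and *Irf2* gained a call.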
